A study of Nothobranchius furzeri with 6 samples.

Results

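Ribosome occupancy was compared between adult (12 weeks post hatching, wph) and young (5 wph) livers of the turquoise killifish Nothobranchius furzeri, strain MZM-0410. The comparison used 4 of the 6 libraries of the series, 2 for each age, and the 2 libraries of old (39 wph) fish entered the fit and are quoted as context. Each library was made from a pool of livers from several fish, with males and females in equal ratio according to the study's methods. The 2 libraries of an age are therefore 2 pools and not 2 animals, and p-values measure the spread between pools. For each of 22757 transcripts, 1 per gene, the ribosome footprints were summed from the start to the stop codon, and 15557 transcripts had enough footprints to be tested. The files give transcript identifiers without gene names, so transcripts are described by their coding length and by sequence patterns found in the proteins they encode. A pattern is a short consensus typical of a protein family, and a match is a description of the sequence, not an annotation.

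Ribosome profiling counts the short messenger RNA fragments that translating ribosomes protect, so a transcript's footprints reflect both how much of its RNA is present and how densely it is translated. No matched RNA measurement was analysed here, and a change in occupancy cannot be divided between these contributions. The liver of a growing fish builds hepatocyte mass, stores iron, makes plasma proteins and, in females, makes egg yolk precursors. In whole tissue, fewer cells of a type and less RNA per cell cannot be told apart.

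Levels are given as CPM, the transcript's footprints per 1000000 footprints of the library after scaling with TMM factors. For replicates 1 and 2 these factors were 0.745 and 0.912 (young), 1.12 and 0.586 (adult), and 1.36 and 1.66 (old). Scaled CPM are therefore not shares of a library's footprints. The 4 libraries held between 37067419 and 39692061 coding footprints and the old libraries 39031406 and 22580854. Adult replicate 2 stood apart in a group of short, basic proteins. In that library 89 transcripts of at least 20 CPM lay more than 4 times above the highest of the other 5 libraries, against 1 transcript in adult replicate 1 and 0 and 1 in young replicates 1 and 2, and 0 and 55 in old replicates 1 and 2. These 89 had a median length of 165 codons and a median lysine plus arginine content of 20.3%, against 11.3% over all tested transcripts, and 7 of them carried peptides typical of ribosomal proteins, a pattern written after these sequences had been seen and found in no other transcript. As a description of that choice, the level summed over the 7 was 381 and 406 CPM in the young libraries, 555 CPM in adult replicate 1 and 3254 CPM in adult replicate 2. Of the 89, 0 passed by edgeR, 88 had an unadjusted p under 0.05 and 26 passed by DESeq2. The part of this library's difference in the other results was not tested beyond the fits without it, which are given below.

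Between young and adult liver, 182 transcripts rose and 29 fell (edgeR quasi-likelihood test, Benjamini-Hochberg adjusted p under 0.05). These were 1.17% and 0.186% of the transcripts tested. The median log2 fold change of all tested transcripts was -0.01, and that of the transcripts called was 2.81 among the rises and -2.85 among the falls. All 182 rises were higher in both adult libraries than in both young libraries, and all 29 falls were lower in both. Over all tested transcripts the ages did not overlap in 25.1% (adult higher) and 25.4% (adult lower), so such a separation alone is common in 4 libraries. A stricter count was a change of at least 2-fold in each of the 4 adult and young library pairs, which 181 of the 182 rises and 28 of the 29 falls met, against 590 and 271 of all tested transcripts. The calls were made on the same libraries and favour large changes, so this count is a description too. The rises lay at a median of 6.39 times the young mean in adult replicate 1 and 7.73 times in adult replicate 2, and 148 of the 182 were higher in adult replicate 2 than in adult replicate 1. Of the 29 falls, 9 were higher in adult replicate 2. When each coding sequence was cut at its middle and both pieces were fitted on their own, both changed in the same direction as the whole for all 177 rises and 28 falls where both could be fitted, and both pieces had the same sign in 10303 of 13380 of all tested transcripts. The calls were made on the sum of both pieces, so this agreement is a description. In the old libraries 157 of the 182 rises had a mean level between those of young and adult liver, 20 lay above the adult mean and 5 below the young mean, and of the 29 falls 14 lay between. Of all tested transcripts 3783 of 15557 lay between, and a call for a wide gap between young and adult makes room for old values inside it.

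**Figure D1:**
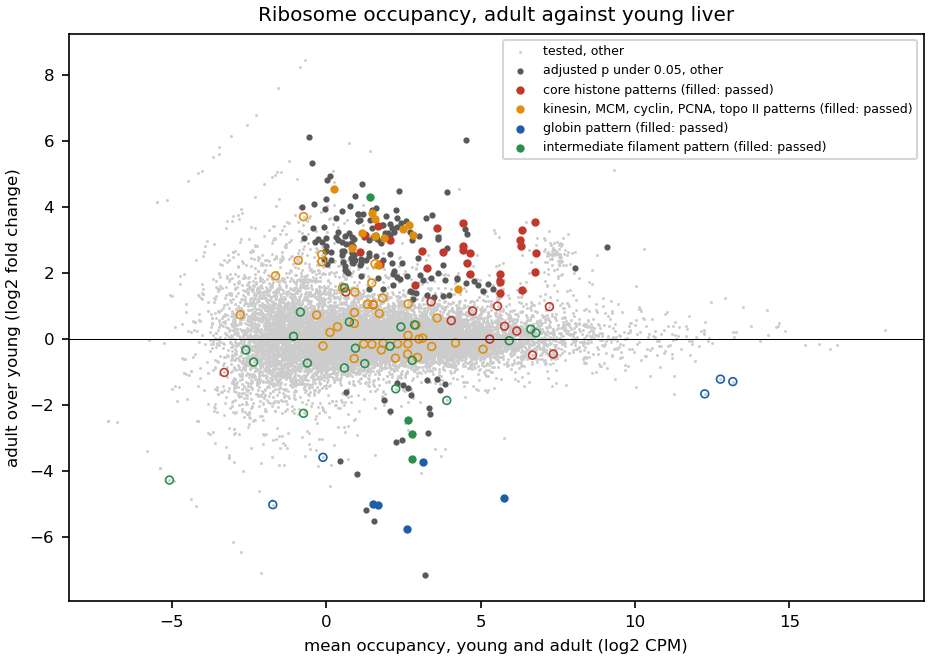
Each point is 1 of the tested transcripts, with its mean level in the 4 young and adult libraries on the horizontal axis (log2 CPM) and its adult over young log2 fold change on the vertical axis. Filled coloured points passed the test and open ones did not; the 26 called core histone transcripts lie above 0 and the 5 called globin transcripts below it. The grey group of uncalled points above 0 at high levels holds mainly transcripts that were high in adult replicate 2 only.

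The calls rest on few pools. Without young replicate 1 or without young replicate 2 edgeR called no transcript in either direction, with 1272 and 1348 unadjusted p-values under 0.05 over all transcripts. Without adult replicate 2 it called 20 rises and 1 fall, and without adult replicate 1 it called 298 rises and 31 falls, of which 137 and 16 were among the 182 and 29. Each of those 4 fits leaves 1 library at an age, which is taken to vary like the other groups. In all 4 the 182 rises and 29 falls kept their direction and an unadjusted p under 0.05, which the choice of these transcripts on the same libraries favours.

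Core histones formed the largest group with a shared pattern among the rises, 26 of 182. Histones H2A, H2B, H3 and H4 make up the nucleosome core, and the canonical forms are produced in bulk when DNA is replicated. The pattern for H2A matched 8 tested transcripts, of which 6 rose, that for H2B matched 11, of which 10 rose, that for H3 matched 10, of which 6 rose, and that for H4 matched 10, of which 4 rose. No core histone transcript fell by edgeR or by DESeq2, and 1.17% of all tested transcripts rose by edgeR. The histone patterns were written after called or library-specific sequences had been seen, so these counts are a description. Median log2 fold changes were 2.72 for H2A, 1.95 for H2B, 2.34 for H3 and 1.26 for H4. The summed H2A level was 83.3 and 102 CPM in the young, 465 and 455 CPM in the adult pools, and 256 and 258 CPM in the old ones. The summed H2B level was 121 and 121 CPM in the young, 375 and 401 CPM in the adult pools, and 220 and 228 CPM in the old ones. The summed H3 level was 451 and 538 CPM in the young and 998 and 1036 CPM in the adult pools. The summed H4 level was 250 and 246 CPM in the young and 552 and 556 CPM in the adult pools. The adult over young ratio of the sums was 4.97 for H2A, 3.21 for H2B, 2.06 for H3 and 2.23 for H4. For all these sums the ages did not overlap, and the old libraries lay between the other 2 ages.

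Within H3 the change followed the encoded protein. Histone H3 comes in a replication-coupled form and a replacement form, H3.3, which is laid down throughout the cell cycle, and in vertebrates these forms are told apart by a handful of residues. The 10 H3 transcripts encoded only 2 proteins, both of 136 codons with the start codon. One was encoded by 6 transcripts with 6 different coding sequences, and the other by 4 transcripts with 4 different coding sequences. Counted from 0 at the start methionine, the second protein differed from the first at 4 residues, A31S, S87A, V89I and M90G, the positions that separate H3.3 from the replication-coupled form in vertebrates. The stretches of coding sequence that hold these positions are shown for the most abundant transcript of each protein, 5′ to 3′ from the deposited files, with the codons of the 4 residues in capitals.
Shared protein, codons 26 to 36: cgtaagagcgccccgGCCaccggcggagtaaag
Second protein, codons 26 to 36: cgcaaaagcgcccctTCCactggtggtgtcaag
Shared protein, codons 82 to 95: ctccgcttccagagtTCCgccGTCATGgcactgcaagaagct
Second protein, codons 82 to 95: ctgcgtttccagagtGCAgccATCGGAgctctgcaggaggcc

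All 6 transcripts of the shared protein rose, with log2 fold changes from 2.01 to 3.54 and adjusted p from 0.00906 to 0.0347 (edgeR). The one with the largest change had 14.2 and 19.8 CPM in the young libraries, 187 and 208 CPM in the adult pools, and 95.04 and 78.6 CPM in the old ones, changing by 3.54 ± 0.29 on the log2 scale (SE, n = 2 pools per age). The most abundant one in the young libraries had 45.3 and 42.1 CPM there and 165 and 186 CPM in the adult libraries, changing by 2.01 ± 0.25 on the log2 scale (SE). The ages did not overlap for either. None of the 4 transcripts of the second protein passed by edgeR, with log2 fold changes of 0.37, -0.02, -0.47 and -0.50 and adjusted p from 0.447 to 0.983, and 0 of these 4 had an unadjusted p under 0.05 or passed by DESeq2. Their most abundant transcript had 181 and 198 CPM in the young and 142 and 132 CPM in the adult libraries. As both proteins have the same length, their summed levels were set against each other within each library, a ratio that no scaling between libraries can move. Both sums hold only reads with a single best location. Coding sequences of the shared protein were up to 99.8% identical, with 13.1% to 100% of codons covered. Those of the second were up to 88.6% identical, with 96.4% to 100% covered. The shares may therefore understate the shared protein in every library, which was not tested. The shared protein took 20.2% and 19.4% of the H3 footprints in the young libraries, 65.9% and 70.5% in the adult pools, and 62.2% and 52.4% in the old ones. The ratio of the shared to the second protein was 0.247 ± 0.00909 in young and 2.16 ± 0.322 in adult liver (mean ± SD, n = 2 each), 8.78-fold higher in adult. Both adult ratios exceeded both young ratios (two-sided exact permutation test, p = 0.333, which is the lowest that 2 against 2 libraries can give). The 6 transcripts of the shared protein had all been called as rises on these same libraries, and the 4 of the second had not. The direction of the ratio follows from those calls, so the ratio and its test are a description.

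**Figure D2:**
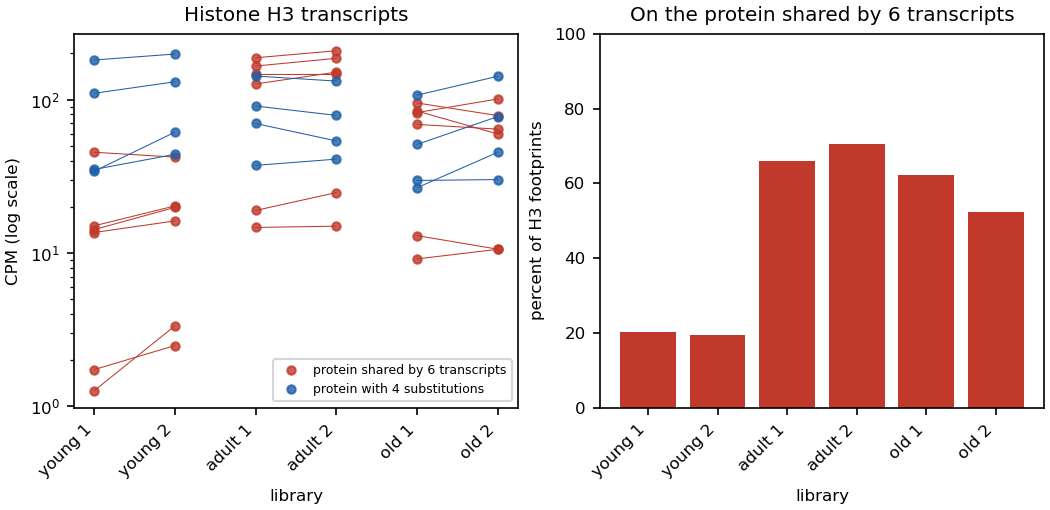
The left panel gives the level (CPM, log scale) of each of the 10 H3 transcripts in the 6 libraries, red for the protein shared by 6 transcripts and blue for the protein with 4 substitutions, with lines joining the 2 libraries of 1 age. The right panel gives the percentage of H3 footprints on the shared protein, which was 20.2% and 19.4% in young and 65.9% and 70.5% in adult libraries.

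A similar split by protein was seen in H2A. Of the 8 tested H2A transcripts, the 6 that rose encoded proteins at least 98.4% identical to each other, with log2 fold changes from 2.61 to 3.51. The other 2 encoded proteins of 128 and 161 codons that were 96.1% identical to each other and 54.2% to 60.9% identical to the rest. They had log2 fold changes of 0.84 and 0.54 and adjusted p of 0.199 and 0.476 (edgeR). The 10 H2B transcripts that rose included 7 that encode 1 identical protein of 124 codons, with log2 fold changes from 1.70 to 3.13. For H4 no such split was seen. There 8 transcripts encoded 1 identical protein of 103 codons, of which 4 passed, with log2 fold changes from 0.97 to 2.69 over the 8. The H4 pattern also matched transcripts of 158 and 733 codons, which did not pass. The difference between the groups of histone proteins was not tested. Histone genes are near-identical copies, and reads were kept only where they had a single best location. In the 7 identical H2B transcripts between 4.80% and 37.6% of codons carried any footprint, and in the 6 identical H3 transcripts between 13.1% and 100%. Values for single copies are therefore uncertain. Sums per protein also lack the reads that fit several copies, so they are incomplete too.

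Transcripts with patterns of other proteins used in DNA replication and cell division were also among the rises. The sliding clamp PCNA, which holds DNA polymerase on its template, had 8.85 and 11.2 CPM in the young, 27.8 and 28.4 CPM in the adult pools, and 25.0 and 19.9 CPM in the old ones, changing by 1.49 ± 0.23 on the log2 scale (SE, adjusted p = 0.0316, edgeR). A type II DNA topoisomerase of 1572 codons, an enzyme that untangles DNA strands, had 1.34 and 1.51 CPM in the young and 13.0 and 12.4 CPM in the adult libraries, changing by 3.15 ± 0.23 on the log2 scale (SE, adjusted p = 0.00906). A second topoisomerase II transcript of 1574 codons had 8.74 and 9.83 CPM in the young and 7.21 and 5.23 CPM in the adult libraries and did not pass (adjusted p = 0.341). The 2 long topoisomerase transcripts thus took opposite directions between the ages, of which only the first passed.

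MCM proteins form the ring-shaped helicase that opens DNA at replication origins. All 6 MCM transcripts tested were higher in both adult than in both young libraries, with a median log2 fold change of 1.46, but 1 of 6 passed by edgeR and 4 by DESeq2. Their summed level was 6.61 and 10.95 CPM in the young, 23.1 and 28.3 CPM in the adult pools, and 39.0 and 39.0 CPM in the old ones. Unlike the histones, the MCM sum was higher in the old than in the adult libraries, and no test of that difference was made. Cyclins switch on the kinases that drive the cell cycle. Of 9 cyclin transcripts tested, 2 rose, and all 9 were higher in both adult than in both young libraries, with a median log2 fold change of 1.41. The cyclin transcript of 433 codons had 0.289 and 0.592 CPM in the young and 4.56 and 6.53 CPM in the adult libraries, and that of 303 codons had 1.12 and 1.04 CPM in the young and 7.80 and 15.6 CPM in the adult libraries. Over all tested transcripts 25.1% were higher in both adult libraries and 1.17% rose by edgeR. DESeq2 called 485 transcripts higher over all. The MCM and cyclin patterns, like those of PCNA and topoisomerase II, were written after called or library-specific sequences had been seen. The place of both families on the adult side is therefore a description.

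Kinesins are motors that carry cargo along microtubules, and several of them move chromosomes in dividing cells. Of 31 kinesin transcripts tested, 7 rose, against 1.17% of all tested transcripts. The 7 had log2 fold changes from 2.74 to 4.52, while the median over the family was 0.10. The 711-codon kinesin had 0.361 and 0.385 CPM in the young, 4.45 and 6.04 CPM in the adult pools, and 3.07 and 1.82 CPM in the old ones, changing by 3.79 ± 0.39 on the log2 scale (SE, adjusted p = 0.0159). DESeq2 called 9 of the 31 higher and 0 lower, and over all transcripts it called 485 higher and 149 lower. Protein kinases attach phosphate to other proteins. Of 388 tested, 9 rose and 0 fell by edgeR, beside 1.17% and 0.186% of all tested transcripts. By DESeq2 18 of them rose and 2 fell, beside the same 485 and 149 over all transcripts. The family median was -0.13. The kinase of 303 codons had 1.48 CPM in both young libraries, 15.7 and 24.0 CPM in the adult pools, and 7.06 and 5.86 CPM in the old ones (log2 fold change 3.74 ± 0.29 SE, adjusted p = 0.00906). One of 30 ubiquitin-conjugating enzymes, of 174 codons, rose from 1.41 and 1.63 to 10.3 and 13.9 CPM. Of that family 4 were higher and 11 lower in both adult than in both young libraries, with a median of -0.12. Over all tested transcripts these shares were 25.1% and 25.4%. One of 22 tubulins, of 445 codons, rose from 9.28 and 8.55 to 21.02 and 23.5 CPM. DESeq2 called 2 tubulins higher and 1 lower, and the tubulin median was 0.21. The kinesin, ubiquitin-conjugating and tubulin patterns were written after called or library-specific sequences had been seen, so their counts are a description.

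The largest rise by the rule for named transcripts was Nfu_t_1_019660, whose 295-codon protein carries the pattern of aquaporins, the channels that pass water or glycerol through membranes. It had 0.650 and 0.740 CPM in the young, 26.4 and 64.5 CPM in the adult pools, and 66.2 and 53.9 CPM in the old ones, changing by 6.02 ± 0.51 on the log2 scale (SE, adjusted p = 0.00906). Its level in the old libraries was as high as in the adult ones, and the young libraries lay far below both. Without adult replicate 2 its log2 fold change was 5.24. The other 4 aquaporin transcripts tested did not pass by edgeR, with log2 fold changes from -1.18 to 0.69, and DESeq2 called 1 of them lower, the one at -1.18. Aquaporins hold 2 copies of the tripeptide asparagine, proline and alanine in their pore, and both were found in this transcript, shown 5′ to 3′ with their codons in capitals and counted from 0 at the start codon.
Nfu_t_1_019660, codons 67 to 79: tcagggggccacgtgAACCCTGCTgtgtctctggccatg
Nfu_t_1_019660, codons 199 to 211: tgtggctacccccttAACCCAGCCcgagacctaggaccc

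The second largest, Nfu_t_1_035730, of 202 codons and without a matched pattern, had 0.433 and 0.444 CPM in the young, 5.604 and 14.2 CPM in the adult pools, and 1.85 and 5.46 CPM in the old ones (log2 fold change 4.48 ± 0.71 SE, adjusted p = 0.0369). A P-type ATPase of 1244 codons, a member of the family of ion and lipid pumps, had 1.05 and 1.57 CPM in the young, 12.4 and 44.6 CPM in the adult pools, and 45.3 and 50.2 CPM in the old ones (log2 fold change 4.43 ± 0.63 SE, adjusted p = 0.0260). The aquaporin, the 202-codon protein and this ATPase were each at least 2-fold higher in adult replicate 2 than in adult replicate 1. Without adult replicate 2 the log2 fold change of the 202-codon protein was 3.67 and that of the ATPase 3.23, and without adult replicate 1 that of the ATPase was 5.09. Ferritin is the iron storage protein. One ferritin of 176 codons had 117 and 163 CPM in the young, 996 and 914 CPM in the adult pools, and 751 and 1344 CPM in the old ones, changing by 2.77 ± 0.39 on the log2 scale (SE, adjusted p = 0.0249). A second of 177 codons had 33.2 and 32.7 CPM in the young and 24.4 and 19.9 CPM in the adult libraries and did not pass (adjusted p = 0.309), nor did another one of 176 codons, at most at 2.26 CPM in these libraries. A class I aminotransferase of 502 codons, of the enzyme family that moves amino groups between amino acids and keto acids, had 79.7 and 116 CPM in the young and 394 and 474 CPM in the adult libraries (log2 fold change 2.15 ± 0.35 SE, adjusted p = 0.0386). The most abundant of the other 5 aminotransferases, of 475 codons, had 2181 and 2426 CPM in the young and 1425 and 1123 CPM in the adult libraries, did not pass by edgeR and was called lower by DESeq2.

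**Figure D3:**
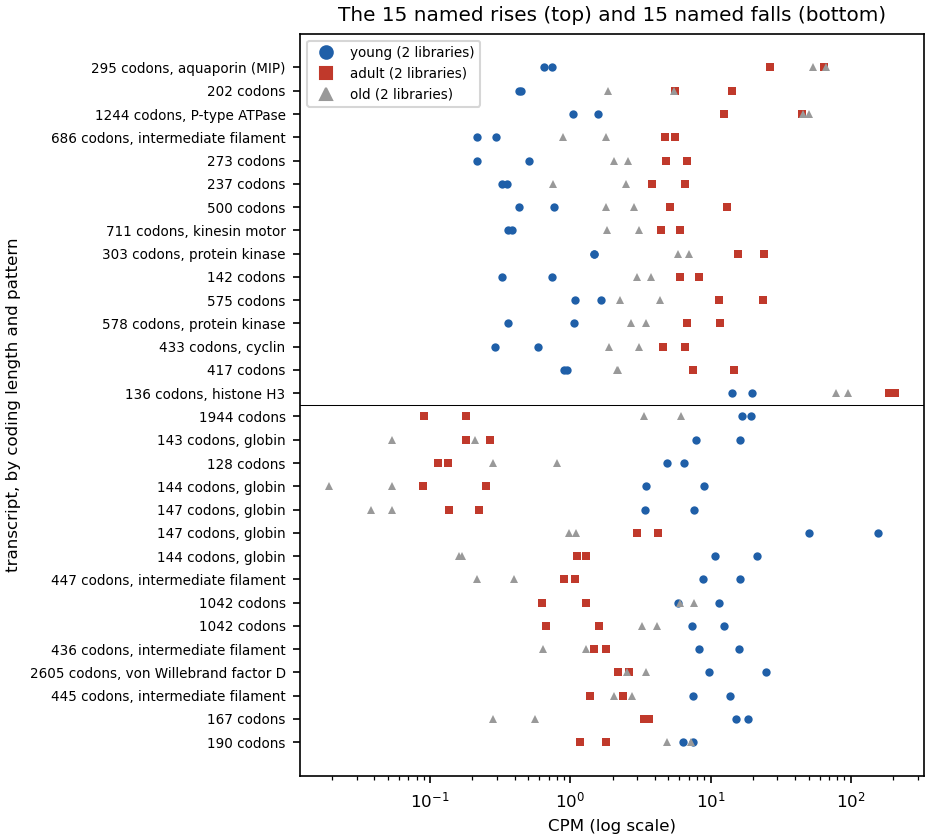
Each row is 1 of the 15 rises (top) or 15 falls (bottom) chosen by the rule for named transcripts, labelled by coding length and pattern, with its level in each library (CPM, log scale) as a blue circle (young), red square (adult) or grey triangle (old). In all 30 rows the red squares lie on 1 side of the blue circles.

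The falls were fewer, and globins were their largest group. Globins are the oxygen-carrying chains of haemoglobin in red blood cells, and fish carry separate sets of globin genes for early and later life. Of 10 globin transcripts tested, 5 fell, against 0.186% of all tested transcripts. All 10 were lower in both adult than in both young libraries, against 25.4% of all tested transcripts. The globin pattern was written after called or library-specific sequences had been seen, so these counts are a description. The median log2 fold change was -4.29, and DESeq2 called 9 lower, beside 149 over all transcripts. The called globin with the highest level, of 147 codons, had 50.2 and 157 CPM in the young, 4.23 and 2.996 CPM in the adult pools, and 0.979 and 1.10 CPM in the old ones, changing by -4.83 ± 0.57 on the log2 scale (SE, adjusted p = 0.0182). Its log2 fold change was -5.43 without young replicate 1 and -3.79 without young replicate 2. Nfu_t_1_055051, of 143 codons, had 16.1 and 7.90 CPM in the young, 0.181 and 0.268 CPM in the adult pools, and 0.207 and 0.0535 CPM in the old ones (log2 fold change -5.78 ± 0.59 SE, adjusted p = 0.0156; -5.17 without young replicate 1). A globin of 144 codons had 10.8 and 21.6 CPM in the young and 1.29 and 1.12 CPM in the adult libraries (log2 fold change -3.74 ± 0.38 SE, adjusted p = 0.0156). Nearly all globin footprints lay on 3 other transcripts, which did not pass by edgeR and were called lower by DESeq2. These 3, of 148, 172 and 143 codons, had log2 fold changes of -1.304, -1.23 and -1.68 with adjusted p of 0.164, 0.181 and 0.0877. Summed, the 3 had 27451 and 33214 CPM in the young, 13791 and 9825 CPM in the adult pools, and 4362 and 3751 CPM in the old ones. The 5 called globins took 0.321% and 0.596% of globin CPM in the young libraries and 0.0441% and 0.0478% in the adult libraries, a drop that follows from how the 5 were chosen. The difference in size between the 2 groups of globins was not tested, and some globins are close relatives, with 30.8% to 86.1% identity over all pairs.

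**Figure D4:**
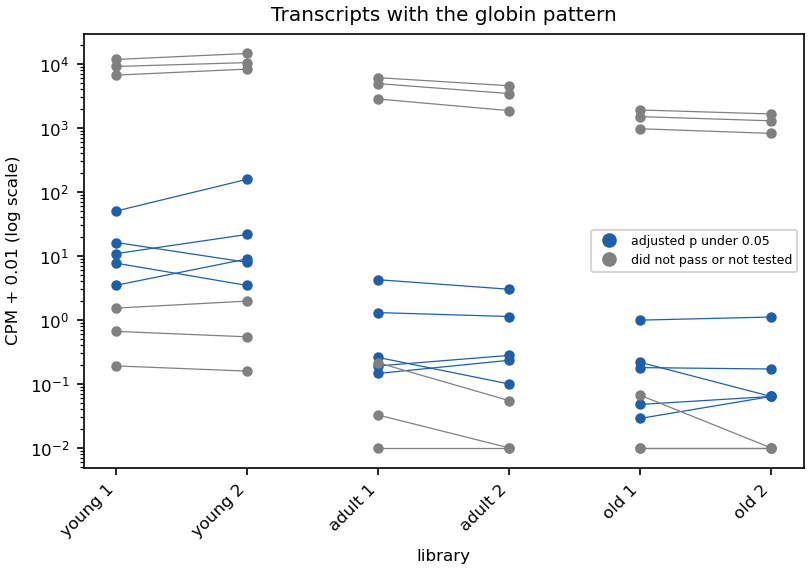
Each point is 1 globin transcript in 1 library, on a log scale of CPM plus 0.01, with lines joining the 2 libraries of 1 age. The 5 blue transcripts passed the test, and the 3 grey transcripts at the top, between 6658 and 14503 CPM in young liver, did not.

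Intermediate filament proteins, the family of keratins and vimentin that gives cells mechanical strength, moved in both directions. Of 25 tested, 3 fell and 1 rose (0.186% and 1.17% of all tested transcripts), beside a median of -0.35. The pattern was written after called or library-specific sequences had been seen, so these counts are a description. The falls, of 447, 436 and 445 codons, were 57.1% to 62.8% identical to each other. That of 447 codons had 8.88 and 16.3 CPM in the young, 1.08 and 0.894 CPM in the adult pools, and 0.396 and 0.214 CPM in the old ones (log2 fold change -3.65 ± 0.41 SE, adjusted p = 0.0161). The rise, of 686 codons and at most 24.8% identical to those 3, had 0.217 and 0.296 CPM in the young and 4.72 and 5.54 CPM in the adult libraries (log2 fold change 4.29 ± 0.46 SE, adjusted p = 0.0161).

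The largest fall, Nfu_t_1_025569, encodes a protein of 1944 codons with a hydrophobic start of the kind that directs secretion. It had 16.8 and 19.4 CPM in the young, 0.0904 and 0.179 CPM in the adult pools, and 6.14 and 3.34 CPM in the old ones, changing by -7.17 ± 0.48 on the log2 scale (SE, adjusted p = 0.00906). Its level in the old libraries was above that in the adult ones and below that in the young ones. The protein was 34.2% identical to that of another fall, of 2605 codons, which carries the von Willebrand factor D pattern found in mucins and in clotting factor carriers. That transcript had 9.75 and 25.0 CPM in the young and 2.60 and 2.19 CPM in the adult libraries (log2 fold change -2.85 ± 0.46 SE, adjusted p = 0.0376), and without young replicate 2 its log2 fold change was -2.02. All 5 tested transcripts with this pattern were lower in both adult than in both young libraries, against 25.4% of all tested transcripts. Of the 5, 1 passed, against 0.186% of all tested transcripts called lower. The pattern was written after called or library-specific sequences had been seen, so these counts are a description. A transcript of 153 codons with the C-type lectin pattern, typical of sugar-binding proteins, fell from 3.18 and 4.35 to 0.181 and 0.268 CPM. Of 33 tested with that pattern, 1 fell and 0 rose (0.186% and 1.17% of all tested transcripts), beside a median of -0.04. In both adult libraries 3 were higher and 7 lower than in both young ones (25.1% and 25.4% of all tested transcripts).

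One fall, of 123 codons, carries the pattern of the glucagon hormone family, some of whose members are made in the endocrine pancreas and the gut. It had 5.06 and 4.35 CPM in the young, 0.0678 and 0.224 CPM in the adult pools, and 9.34 and 2.57 CPM in the old ones (log2 fold change -5.19 ± 0.82 SE, adjusted p = 0.0369). A second member of 191 codons followed the same order, with 5.74 and 5.15 CPM in the young, 0.384 and 0.581 CPM in the adult pools, and 19.5 and 3.18 CPM in the old ones. It did not pass by edgeR (adjusted p = 0.125) and was called lower by DESeq2. The third tested member, of 152 codons, had a log2 fold change of -0.52 and passed by neither edgeR nor DESeq2. Of the 3 tested, 1 fell by edgeR, against 0.186% of all tested transcripts. The pattern was written after called or library-specific sequences had been seen, so this count is a description. Without adult replicate 1 or adult replicate 2 the log2 fold change of the called member was -4.37 or -6.05. The trypsin-type serine proteases, which include pancreatic digestive enzymes as well as plasma proteases, were at 37526 and 36505 CPM in the young, 27811 and 35048 CPM in the adult pools, and 51193 and 39434 CPM in the old ones in sum. Of the 47 tested, 5 were higher and 22 lower in both adult than in both young libraries (25.1% and 25.4% of all tested transcripts), 0 passed by edgeR, 7 had an unadjusted p under 0.05 and 1 was called lower by DESeq2. The part of pancreatic tissue in the pools was not tested.

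**Figure D5:**
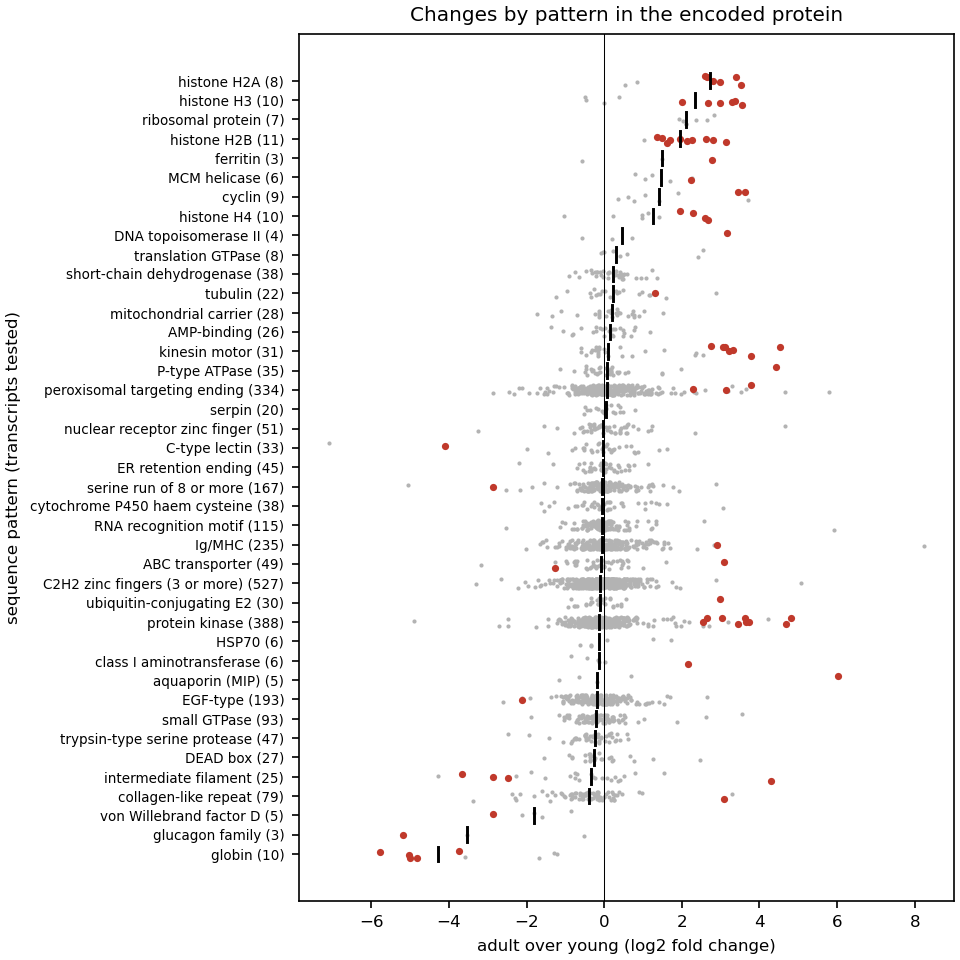
Each grey point is a tested transcript that matches the pattern named on the left (number tested in brackets), at its adult over young log2 fold change, and red points passed the test. Black bars give each pattern's median, which was 2.72 for H2A and -4.29 for globins, while most large families have medians near 0.

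Many of the original patterns held no call. For 13 of the 21 patterns in the original set no transcript passed by edgeR in either direction. They were cytochrome P450 enzymes (38 tested), trypsin-type proteases (47), serpins (20), proteins with an endoplasmic reticulum retention ending (45), AMP-binding enzymes (26), mitochondrial carriers (28), nuclear receptors (51), short-chain dehydrogenases (38), HSP70 chaperones (6), RNA recognition motif proteins (115), DEAD box helicases (27), C2H2 zinc finger proteins (527) and small GTPases (93). Of these 1058 transcripts, 101 or 9.55% had an unadjusted p under 0.05, against 14.9% of all tested transcripts, and DESeq2 called 5 higher and 8 lower. The 13 patterns were picked for holding no call, which lowers that share. Over all tested transcripts edgeR called 1.17% higher and 0.186% lower, and DESeq2 called 485 transcripts higher and 149 lower over all. The medians of the 13 patterns lay between -0.26 and 0.23. The summed level of the serpins, a family of secreted protease inhibitors, was 17706 and 18370 CPM in the young and 18315 and 18342 CPM in the adult libraries. The collagen-like repeat proteins had a median of -0.40, with 41 of 79 lower and 7 of 79 higher in both adult than in both young libraries (25.4% and 25.1% of all tested transcripts), and 1 of 79, of 155 codons, rose from 2.17 and 2.99 to 21.2 and 22.8 CPM.

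The 10 most abundant transcripts took 61.6% and 47.9% of the footprints in the young libraries and 37.7% and 63.1% in the adult libraries, and 0 of the 10 passed by edgeR, by DESeq2 or at an unadjusted p under 0.05. The top transcript, of 1699 codons with a run of 18 serines, had 322131 and 187209 CPM in the young and 96634 and 511708 CPM in the adult libraries (log2 fold change 0.26 ± 0.88 SE, adjusted p = 0.924). The next 4, of 441, 1696, 488 and 581 codons, were also low in adult replicate 1 and near or above young replicate 1 in adult replicate 2. For that of 1696 codons adult replicate 2, at 115031 CPM, lay below young replicate 1, at 119363 CPM. The adult libraries differed more from each other than the ages did for these 5. By contrast, the transcript of 206 codons had 18980 and 24713 CPM in the young and 28242 and 28637 CPM in the adult libraries (log2 fold change 0.38 ± 0.41 SE, adjusted p = 0.710), a difference smaller than its error.

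The encoded proteins of the rises were somewhat shorter and more basic than those of all tested transcripts. Their median length was 378 residues against 443, and 42 of 182 or 23.1% had under 150 codons against 7.95% of all tested. All 26 rises with a core histone pattern are among these 42, so much of that share comes from histone copies. The median lysine share was 7.01% against 5.53%, and that of lysine plus arginine 12.7% against 11.3%. Without the 26 transcripts that match a core histone pattern the remaining 156 had a median length of 434.5 residues. Their median lysine share was 6.59% and their median lysine plus arginine share 12.2%. The 156 still hold a rise of 118 codons that no histone pattern matched. Its protein was 84.7% to 88.1% identical to those of the H2B rises. The tripeptide KEN is 1 of the signals that can mark cell cycle proteins for destruction. It was found in 40 of 182 rises or 22.0% and in 10.5% of all tested transcripts. All 40 were among the 156 without a core histone pattern (25.6% of 156). The search for KEN was not among the protein properties planned at the start, so these counts are a description. The higher lysine share of the rises was not allowed for. A hydrophobic start was found in 7.69% of the rises, 34.5% of the falls and 18.5% of all tested transcripts, and a membrane-type stretch further along in 15.4%, 34.5% and 28.3%. The hydrophobic starts were in 14 of the 182 rises and 10 of the 29 falls, and the difference in share was not tested. Within the falls the median length was 379 residues and the median lysine plus arginine share 10.4%. In all, 60 of the 182 rises and 13 of the 29 falls matched at least 1 of the 42 patterns.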

How the data were processed

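The deposited files list, per codon of each transcript, whole-number footprint counts that the authors made from ribosome profiling reads of pooled livers (ages and strain as the study's methods give them). Per the labels and the study's methods they processed reads with CASAVA 1.8, trimmed adapters with cutadapt 1.4.2, removed ribosomal RNA reads and aligned with Bowtie 1.3.1 to the longest transcript of each gene, keeping single best locations, which thins counts on near-identical copies. The reads carried no molecular identifiers. Here counts were summed from the start to the stop codon, leaving out the flanking codons before the start and the 7 after the stop, and tested with edgeR 4.0.16 (R 4.3.3; quasi-likelihood test, TMM, filterByExpr, all 6 libraries in 1 fit, adult minus young, Benjamini-Hochberg over all 15557 tested transcripts, threshold 0.05). The SE given with a log2 fold change is its absolute value divided by the square root of the test's F statistic. It therefore rests on a spread shared over all 6 libraries. DESeq2 1.42.0, other scalings and filters, codon subsets, the replicate block and each library left out were alternatives. On simulated counts (14933 transcripts run) the test recovered 89% of 4-fold and 100% of 16-fold changes, with 6.44% of calls false. The simulated spread was the same in every library, and changes were placed only on transcripts above a minimum level. No simulated library stood apart as adult replicate 2 does, so these rates may not hold for the real calls.

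Proteins were translated with Biopython 1.88. Of 22757 identifiers, 0 matched the reference gene table, so the gene-name and cell type marker lists could not be applied, and sequence patterns took their place: 21 from an original set and 21 added after called or library-specific sequences were seen. The added ones are the histone, globin, filament, kinesin, MCM, cyclin, tubulin, topoisomerase, PCNA, ferritin, aquaporin and P-type ATPase patterns. Also added were the glucagon, ubiquitin-conjugating, von Willebrand factor D, aminotransferase, ribosomal and translation GTPase patterns. Counts for added patterns are descriptions, since these data were used to write them. A hydrophobic start was a window of 10 residues with mean Kyte-Doolittle hydropathy of at least 2 in the first 30, a membrane-type stretch one of 19 with at least 1.6 after residue 40. Named transcripts were the 15 largest rises and 15 largest falls that held in all 4 library pairs and reached 5 CPM on average in the higher age, the 10 most abundant, and per pattern up to 4 members, called ones first. The age comparison, members and lists were chosen with earlier results of these data known.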

Additional observations from a re-analysis of the deposited data

How the results depend on the processing

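The count of rises and falls moved with the processing while the direction of the called transcripts did not. Against 182 rises and 29 falls, DESeq2 gave 485 and 149, leaving out the low-count filter 546 and 139, and fitting only the young and adult libraries 229 and 52. Coding sequences cut at their middle, an alternative chosen after seeing the data, gave 110 and 19 with the first part only and 108 and 18 with the second. Leaving out 1 library gave 0 to 298 rises and 0 to 50 falls, and the falls numbered 47 without old replicate 1 and 50 without old replicate 2. With the replicate block the counts were 24 and 4, all among the original calls. Deviations of same-numbered libraries correlated at -0.04 (young and adult), 0.13 (young and old) and -0.14 (adult and old). With 1 difference per age, these values cannot settle whether same-numbered pools were handled together. All of the original calls that could be fitted kept their direction in every alternative. Among the named transcripts, 6 of the 10 most abundant, none of them called, reversed direction when 1 library was left out: their log2 fold changes then ranged from -1.40 to 1.01 (1699 codons), -1.37 to 0.43 (441 codons), -1.597 to 0.34 (1696 codons), -1.26 to 0.47 (488 codons), -1.39 to 0.45 (581 codons) and -1.57 to 0.88 (1248 codons). Leaving out 1 library moved the fold of 20 of the 69 called and named transcripts by over 1.5 times. Of 27 pattern medians, 7 changed sign over the alternatives, among them aquaporins (-0.34 to 0.21), tubulins (-0.05 to 0.33) and C-type lectins (-0.37 to 0.12). Depth limited which transcripts could be tested, 15557 of 22757.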
